A study of Mus musculus with 8 samples.

Results

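Interferon-stimulated genes, a list of 40 mouse symbols, were followed across 8 one-colour Agilent microarrays. A gene was included where a non-control probe carried a RefSeq accession of its symbol. This gave 38 genes among the 22907 genes that had a named probe, and no probe accession matched Mx1 or Mx2. The 4 tissue groups were sampled at day 14 from the ischemic side of the brain (slice 3): DEREG mice after ischemia, wild type (WT) mice after ischemia, DEREG mice after sham surgery and WT mice after sham surgery. The 4 groups of CD4 T cells were Treg and nonTreg cells from the ischemic brain of WT mice at day 14 after stroke onset, and Treg and nonTreg cells from the spleen of untreated mice. DEREG mice carry a transgene that places the diphtheria toxin receptor under Foxp3 control, so that toxin can remove regulatory T cells. Whether the mice received toxin is not given in the labels, nor how Treg and nonTreg cells were separated, whether animals were pooled, or the animals' strain background and age. Each group had 1 array, so no difference below has a replicate check, no test between groups was possible, and the number of arrays limits the precision.

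Interferons are secreted proteins that warn cells of viruses and of misplaced nucleic acids. Type I interferons (interferon alpha and beta) bind the receptor made of Ifnar1 and Ifnar2 and activate a complex that includes Stat2 and Irf9, which binds a DNA element called the interferon-stimulated response element (ISRE). Type II interferon (interferon gamma) signals through Ifngr1 and Ifngr2 and acts on another element, the gamma-activated site (GAS). The induced proteins sense foreign RNA and DNA, degrade RNA, block viral entry or release, and raise antigen presentation. In the brain, microglia, macrophages, astrocytes, endothelial cells and infiltrating lymphocytes are all able to express them.

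The promoters of the members were searched for the core letters of these 2 elements. RefSeq promoter windows (assembly GRCm38.p6, 250 bases before to 50 after the transcription start) were matched for 29 of the 40 listed genes, and none were matched for Zbp1, Dhx58, Usp18, Oas2, Mx1, Mx2, Rtp4, Parp9, Parp14, Ifi27l2a and Ifi204. The ISRE core, searched as GAAANNGAAA on both strands, was found for 17 of these 29 genes (58.6%), against 3.99% of all 27025 genes of the table. The GAS core, searched as TTCNNNGAA, which reads the same on both strands, was found for 9 of 29 genes (31.0%), against 9.55% of all genes. Neighbouring matches of a motif can overlap each other. Promoters of 4 genes are shown because these genes carried more than 1 ISRE match and their values are described below, with the matches in capitals and the strand of the gene read 5′ to 3′. Isg15 lies on the minus strand at chr4:156200769-156201068, Oas1a on the minus strand at chr5:120907476-120907775, Ifitm3 on the minus strand at chr7:141010695-141010994, and the Gbp3 start shown on the plus strand at chr3:142559794-142560093.
Isg15: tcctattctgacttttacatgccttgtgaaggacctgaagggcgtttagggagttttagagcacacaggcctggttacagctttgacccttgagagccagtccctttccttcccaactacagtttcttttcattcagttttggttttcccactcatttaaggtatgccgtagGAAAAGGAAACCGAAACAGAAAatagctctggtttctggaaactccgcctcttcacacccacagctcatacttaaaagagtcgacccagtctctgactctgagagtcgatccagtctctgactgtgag
Oas1a: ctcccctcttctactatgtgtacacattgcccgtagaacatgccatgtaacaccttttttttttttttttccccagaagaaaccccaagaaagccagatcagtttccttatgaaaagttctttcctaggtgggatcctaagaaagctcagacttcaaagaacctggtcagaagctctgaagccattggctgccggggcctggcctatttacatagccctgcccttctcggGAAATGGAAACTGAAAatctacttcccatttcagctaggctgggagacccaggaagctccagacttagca
Ifitm3: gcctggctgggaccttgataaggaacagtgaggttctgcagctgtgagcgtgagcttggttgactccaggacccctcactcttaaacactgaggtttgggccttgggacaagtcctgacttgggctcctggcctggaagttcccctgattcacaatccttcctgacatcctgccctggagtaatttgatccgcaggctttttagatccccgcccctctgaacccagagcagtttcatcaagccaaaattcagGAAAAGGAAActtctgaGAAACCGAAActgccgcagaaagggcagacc
Gbp3: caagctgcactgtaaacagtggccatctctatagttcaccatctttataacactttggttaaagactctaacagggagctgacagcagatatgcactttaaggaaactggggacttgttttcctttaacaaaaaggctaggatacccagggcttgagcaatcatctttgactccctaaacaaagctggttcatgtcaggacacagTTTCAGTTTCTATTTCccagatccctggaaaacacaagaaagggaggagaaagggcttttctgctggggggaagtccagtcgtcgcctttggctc
In Isg15, 3 overlapping matches form 1 run before the start. In Oas1a and Gbp3, 2 matches run together before the start, while in Ifitm3 both matches lie after it. Across the members, 21 of 27 ISRE matches lay wholly before the start, and 19 had their centre within 150 bases before it. Of the 300 bases of a window 250 lie before the start, so these counts do not show a preference for that side. These matches describe the letters of the windows and were not compared with binding data. Only exact matches of a core were counted, so a window without a match may still hold a variant of the element.

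**Figure D1:**
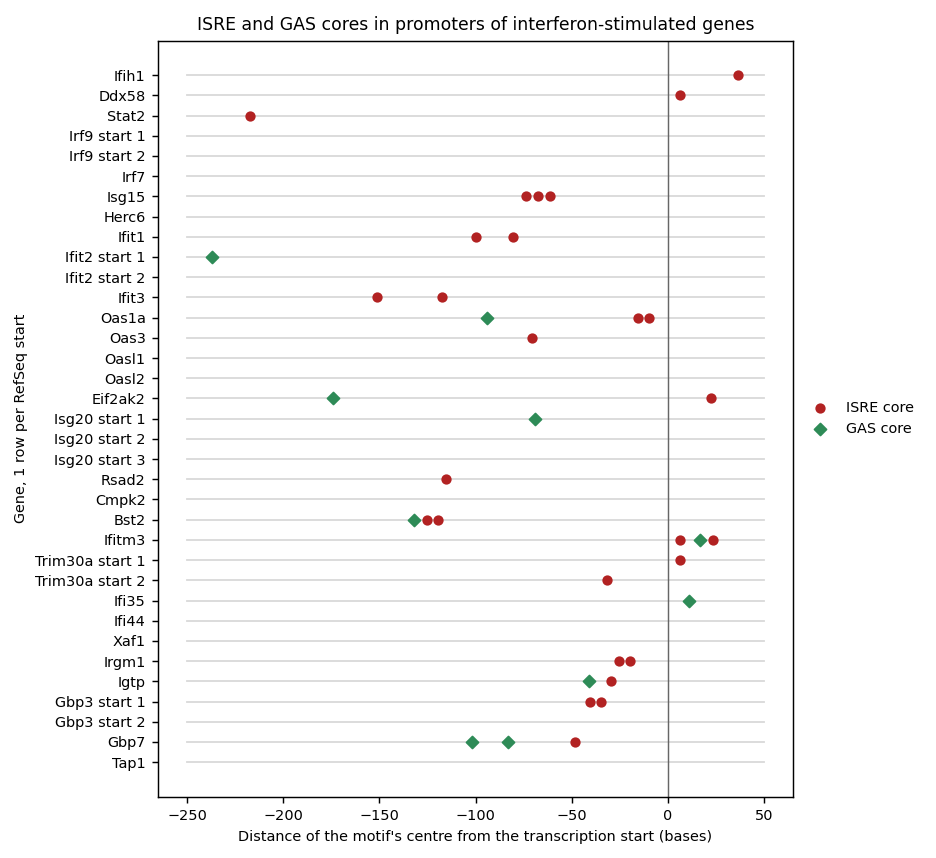
Centres of ISRE core matches (circles) and GAS core matches (diamonds) in RefSeq promoter windows of 29 interferon-stimulated genes, in bases from the transcription start (vertical line), 1 row per start. ISRE matches stand in the windows of 17 genes, with 3 in Isg15. Of 27 matches 21 lie wholly before the start, as do 250 of the 300 bases of a window.

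Levels below are scaled signals. A scaled signal is a probe's processed intensity divided by its array's 75th percentile and multiplied by a constant of the set of 4 arrays, in arbitrary intensity units, so that ratios of scaled signals are fold differences between arrays of one set. Signals of the T cell and the tissue set are on separate scales, and signals of different probes are not comparable with each other. Differences are log2, the first-named group minus the second, and a gene is counted as higher or lower from 2-fold. A probe that the scanner software did not call well above background has only a bound, and the fold is then written as at least N-fold.

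The arrays were checked against markers first. Cd3e, part of the T cell receptor complex, gave 23517 and 27654 units in brain Treg and brain nonTreg, and 30590 and 33685 units in spleen Treg and spleen nonTreg. Foxp3, the transcription factor of regulatory T cells, gave 3843 units in brain Treg and 726 units in brain nonTreg. Spleen Treg had 7782 units of it, and in spleen nonTreg it was not well above background. Both brain T cell arrays also carried markers of other cells: 10 of 10 microglia markers and 8 of 9 macrophage and monocyte markers were above background on each, against 4 and 5 microglia markers and 2 macrophage markers on the spleen arrays. Also above background on both brain arrays were 6 of 6 endothelial markers (2 on each spleen array) and 6 of 7 dendritic cell markers (1 on each spleen array), and 7 and 8 of 8 CD8 T and NK cell markers in brain Treg and nonTreg (4 on each spleen array). Foxp3 had only a bound on each of the tissue arrays, so no loss of regulatory T cells could be read from it. In bulk samples, fewer cells of a type and less RNA per cell cannot be told apart.

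In WT brain tissue, interferon-stimulated genes were higher after ischemia than after sham surgery in all 38 cases, where 44.2% of all genes compared were. At least 2-fold higher were 37 of the 38 genes, against 18.8% of the 16964 genes compared, and none were at least 2-fold lower, against 18.4%. Their median difference was 4.33 (log2), against -0.14 over all genes. In DEREG tissue all 38 genes were at least 2-fold higher after ischemia than after sham surgery, against 22.4% of 17157 genes (47.9% were above 0), with a median of 4.90 against -0.06 over all genes. The smallest differences measured were those of Cmpk2 in both genotypes, 0.94 in WT and 1.87 in DEREG. Folds of genes that were dim after sham surgery depended on the background correction: with normexp, which adds an offset of 50 to each signal, all 38 steps were smaller in each genotype, by over 1.5 times for 18 genes in DEREG and 19 in WT. Zbp1 then stood at 52.2-fold in DEREG and 24.7-fold in WT, Oas3 at 6.77-fold and 2.83-fold, Ifi44 at 6.74-fold and 4.02-fold, and Herc6 at 3.08-fold and 1.82-fold.

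**Figure D2:**
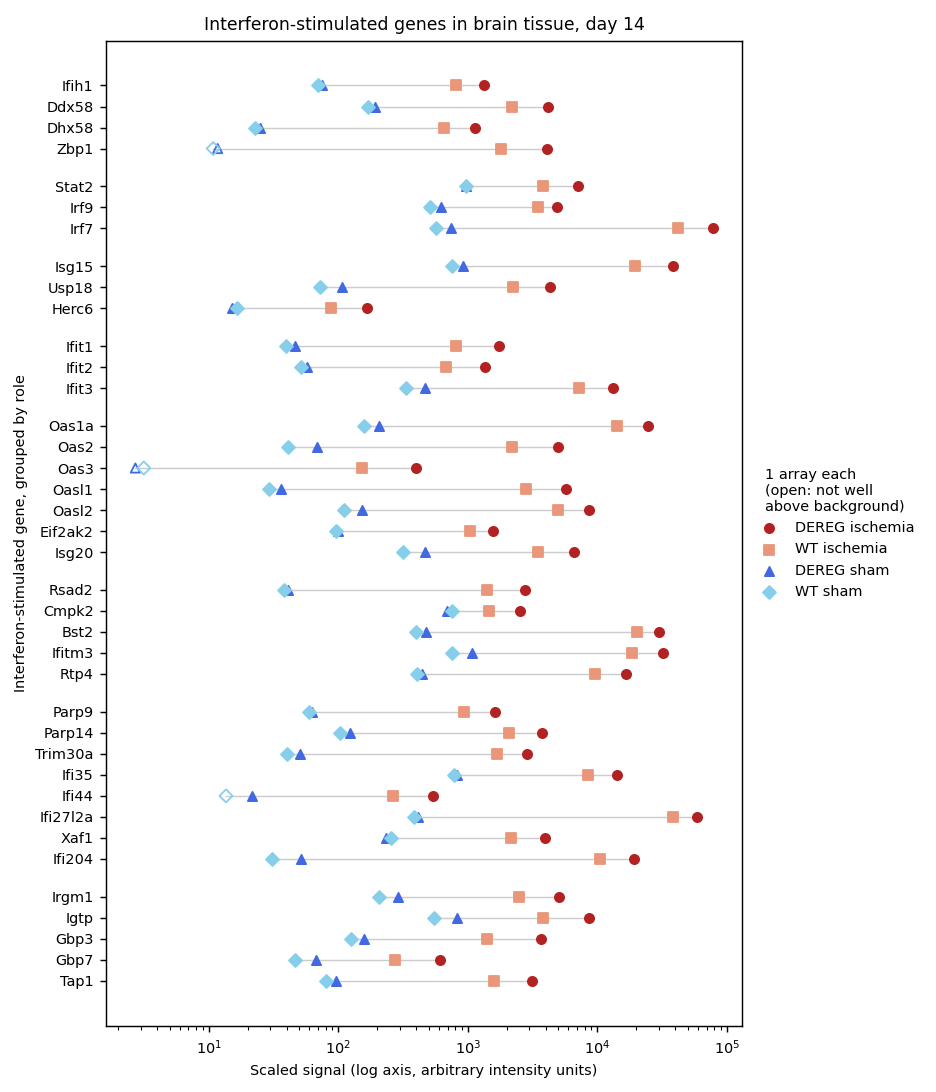
Scaled signal (log axis, arbitrary intensity units) of 38 interferon-stimulated genes on the 4 tissue arrays, grouped by role; open symbols were not well above background. Both ischemia arrays lie to the right of both sham arrays for every gene, and DEREG ischemia lies to the right of WT ischemia for every gene.

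Sensors of nucleic acids were all higher after ischemia. Ifih1 (MDA5) and Ddx58 (RIG-I), which detect viral double-stranded RNA, were 17.7-fold and 21.7-fold higher in DEREG ischemia than in DEREG sham, and 11.7-fold and 13.1-fold higher in WT ischemia than in WT sham. Dhx58 (LGP2), their regulator, gave 1139 and 662 units in DEREG and WT ischemia, against 25.2 and 22.9 units in DEREG and WT sham. Zbp1, a sensor of Z-form nucleic acid that can trigger necroptosis, gave 4063 units in DEREG ischemia and 1813 units in WT ischemia. It was not well above background on either sham array, which makes it at least 346-fold higher in DEREG and at least 150-fold higher in WT tissue after ischemia.

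The transcription factors of the pathway covered a wide range. Irf7, which amplifies production of type I interferon, gave 77872 and 41988 units in DEREG and WT ischemia, against 742 and 574 units in DEREG and WT sham. Stat2, a subunit of the ISRE-binding complex, was among the smallest differences: 7123 and 3846 units in DEREG and WT ischemia, against 978 and 972 units in DEREG and WT sham. Irf9, its DNA-binding partner, gave 4906 and 3468 units in DEREG and WT ischemia, against 620 and 509 units in DEREG and WT sham. The ischemia array was thus the higher one for each factor in each genotype, by 73.2-fold for Irf7 in WT but 3.96-fold for Stat2 in WT.

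Isg15, a ubiquitin-like protein that is attached to other proteins and whose promoter is printed above, gave 38572 units in DEREG ischemia, 19501 in WT ischemia, 926 in DEREG sham and 757 in WT sham. Usp18, which removes Isg15 and dampens receptor signalling, was 40.4-fold higher in DEREG and 30.6-fold higher in WT after ischemia. Herc6, the ligase that attaches Isg15 in mice, showed a smaller step, 11.2-fold in DEREG and 5.34-fold in WT. The IFIT proteins bind viral RNA, and all 3 were over 10-fold higher after ischemia in both genotypes. Ifit1 gave 1734 and 812 units in DEREG and WT ischemia, against 46.5 and 39.8 units in DEREG and WT sham.

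The OAS family, grouped here with Eif2ak2 and Isg20, included some of the largest differences. The OAS enzymes make the second messenger that activates RNase L, and Oas1a gave 24442 and 14183 units in DEREG and WT ischemia, against 206 and 158 units in DEREG and WT sham. Oasl1, which in mice restrains translation of Irf7, gave 5734 and 2809 units in DEREG and WT ischemia, against 36.5 and 29.3 units in DEREG and WT sham. It was 157-fold higher in DEREG and 96.0-fold higher in WT after ischemia, and 60.6-fold and 29.9-fold with normexp. Oas3 was above background on both ischemia arrays (398 units in DEREG, 154 units in WT) and on neither sham array, at least 37.9-fold and at least 12.8-fold higher. Eif2ak2 (PKR), a kinase that halts translation, differed less, by 3.96 in DEREG and 3.42 in WT on the log2 scale, as did the exonuclease Isg20 (3.82 and 3.45).

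Among proteins that block entry, replication or release of viruses, Bst2 (tetherin), which holds budding virus at the membrane, gave 30242 and 20166 units in DEREG and WT ischemia, against 475 and 401 units in DEREG and WT sham. Ifitm3, which blocks viral fusion, was 29.6-fold higher in DEREG and 24.5-fold higher in WT after ischemia. Rsad2 (viperin), which makes a chain-terminating nucleotide, was 68.2-fold higher in DEREG and 37.0-fold higher in WT. Cmpk2, a mitochondrial nucleotide kinase encoded next to Rsad2, gave 2543 and 1450 units in DEREG and WT ischemia, against 695 and 757 units in DEREG and WT sham. Cmpk2 thus had the smallest step of the members in both genotypes, 3.66-fold in DEREG and 1.91-fold in WT.

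Ifi204, a DNA-binding protein of the p200 family, had the largest measured difference in both genotypes: 19074 and 10561 units in DEREG and WT ischemia, against 51.9 and 31.0 units in DEREG and WT sham. That was 367-fold in DEREG and 341-fold in WT, and 159-fold and 112-fold with normexp. Ifi27l2a was next among genes measured on both arrays in WT, with 58467 and 38725 units in DEREG and WT ischemia, against 416 and 387 units in DEREG and WT sham. Ifi44 gave 536 and 265 units in DEREG and WT ischemia and 21.8 units in DEREG sham, and was not well above background in WT sham. Parp9 and Parp14, enzymes of ADP-ribosylation, were 25.8-fold and 30.3-fold higher in DEREG, and 15.8-fold and 20.4-fold higher in WT.

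The GTPases and the peptide transporter are also induced by interferon gamma. Gbp7, a guanylate-binding GTPase, gave 611 and 277 units in DEREG and WT ischemia, against 67.1 and 46.8 units in DEREG and WT sham. Igtp, an immunity-related GTPase, was 10.5-fold higher in DEREG and 6.98-fold higher in WT, while Irgm1, of the same family, was higher by 4.11 and 3.58 on the log2 scale. Tap1, which carries peptides to MHC class I, was 32.8-fold higher in DEREG and 19.9-fold higher in WT. The median of the 5 GTPase and peptide transport genes was 4.11 in DEREG and 3.47 in WT. The group of 7 made of the OAS family, Eif2ak2 and Isg20 had 5.82 and 5.49, Oas3 counted at its bound. The groups overlapped, since Tap1 was above Eif2ak2 and Isg20 in both genotypes.

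After ischemia, every one of the 38 genes was higher in DEREG than in WT tissue, where 58.7% of 16853 genes compared were. The differences lay in a narrow band from 0.50 (Irf9) to 1.38 (Gbp3), with a median of 0.89 against 0.08 over all genes. At least 2-fold higher in DEREG ischemia were 11 of 38 genes, against 2.36% of all genes, and none were 2-fold lower, against 5.36%. With the scaling percentile taken over probes above background on each tissue array, 7 were higher by that margin. Those 11 genes were Gbp3, Oas3, Igtp, Oas2, Zbp1, Gbp7, Ifit1, Oasl1, Ifi44, Irgm1 and Ifit2. Gbp3, a guanylate-binding GTPase with 2 ISRE matches in the window shown, gave 3652 units in DEREG ischemia, 1402 in WT ischemia, 158 in DEREG sham and 127 in WT sham. By the probe used, 4 of the 5 GTPase and peptide transport genes passed 2-fold, whereas of the 8 PARP and other regulators only Ifi44 did. The smallest differences by the probe used were those of Irf9 (0.50) and Bst2 (0.58).

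DEREG and WT tissue differed less after sham surgery. Of 36 genes compared, 33 were higher in DEREG sham than in WT sham, where 48.2% of 16269 genes were, and none reached 2-fold in either direction (Ifi44 had only a lower bound, 0.68 on the log2 scale), against 0.59% higher and 0.449% lower over all genes. The median was 0.27, against -0.01 over all genes, and the largest measured values were those of Oas2 (0.76) and Ifi204 (0.75). With normexp the median was 0.15 and 29 of 36 genes were higher in DEREG sham. Herc6, Cmpk2 and Xaf1 were lower in DEREG sham, by 0.12 to 0.14 on the log2 scale. By second probes, Tap1 stood at 1.02, past 2-fold, and Parp14 at -0.17. The order DEREG ischemia over WT ischemia over DEREG sham over WT sham held for 32 of the 35 genes above background on all 4 arrays, and for 18.4% of 15116 genes in all.

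The step from sham to ischemia was larger in DEREG than in WT for all 35 genes measured on all 4 arrays, against 55.9% of 15116 genes. This holds for the probe used, since a second probe of Tap1 went the other way, with 4.49 in DEREG and 4.68 in WT. The excess had a median of 0.60 (log2), against 0.06 over all genes, and ran from 0.11 for Ifi204 to 1.07 for Gbp3. It passed 2-fold for 2 genes, Gbp3 and Herc6, where 0.906% of all genes did in that direction and 5.21% in the other. Xaf1 (0.98) and Cmpk2 (0.94) came next. Herc6 was dim after sham surgery, with 15.1 units in DEREG sham and 16.6 in WT sham. The excess of such genes depended on the background correction, as the normexp folds of Herc6, Oasl1 and Ifi204 above show. Which genes passed 2-fold thus depended on the processing. Across the 35 genes the steps in the genotypes, which share no array, followed each other closely (Pearson's r = 0.989, Spearman's rho = 0.987, across genes, which are not independent replicates).

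**Figure D3:**
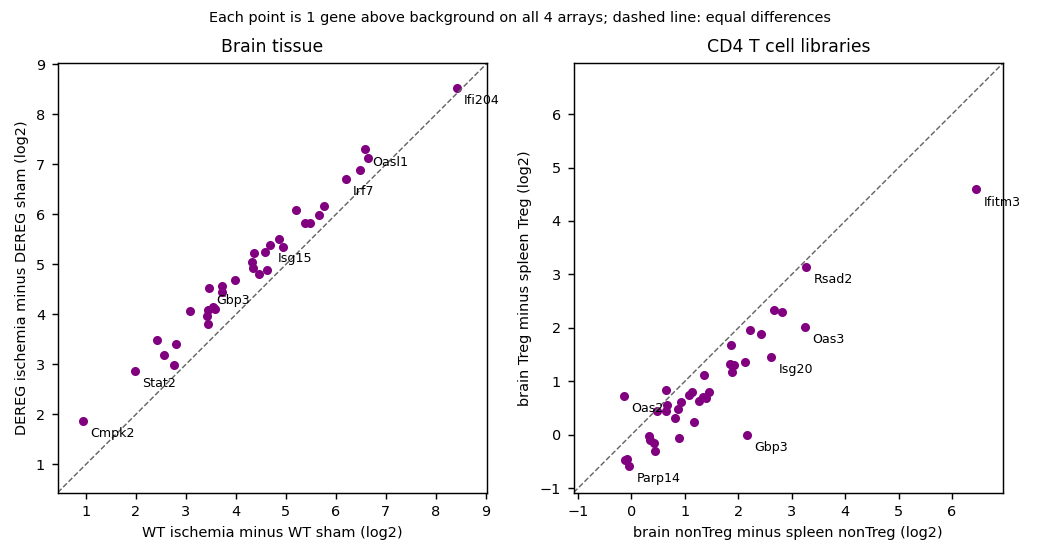
Left, log2 step from sham to ischemia in DEREG (vertical) against WT (horizontal) for 35 genes; right, log2 step from spleen to brain in Treg (vertical) against nonTreg (horizontal) for 38 genes; the dashed line marks equal steps. All tissue points lie above the line, and 36 of 38 T cell points lie below it.

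The interferon genes themselves were dim on the tissue arrays. Ifnb1, which encodes interferon beta, gave 76.4 units in DEREG ischemia and 13.9 units in WT ischemia and was not well above background on either sham array. Ifng, which encodes interferon gamma, gave 82.7 units in DEREG ischemia and 23.2 units in WT ischemia and was likewise below background after sham surgery. Ifnb1 was thus higher in DEREG than in WT ischemia by 2.45 and Ifng by 1.84 on the log2 scale. The lowest value well above background in WT ischemia was 11.3 units, so the size of both differences is uncertain. Of the 13 ligand symbols 11 had a probe; Ifna4, Ifna12, Ifne and Ifnk were not well above background on any tissue array. Between DEREG and WT ischemia, Ifna1 (0.16), Ifna5 (-0.01), Ifnab (0.30) and Ifnl3 (-0.21) differed by less than 2-fold, and Ifna2 was above background in WT ischemia alone.

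Receptor subunits differed by subunit. Ifnar1 gave 2602 and 2644 units in DEREG and WT ischemia, against 3137 and 3292 units in DEREG and WT sham. Its partner Ifnar2 was higher after ischemia, by 2.64 in DEREG and 2.20 in WT. Of the interferon gamma receptor, Ifngr1 was higher by 3.21 and 2.35 and Ifngr2 by 1.90 and 1.42. Il10rb, a subunit shared by interferon lambda and interleukin-10 receptors, was higher by 4.08 and 3.40, and its partner Ifnlr1 by 1.17 and 1.07. None of the 6 subunits reached 2-fold between DEREG and WT ischemia.

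Of 13 kinases, transcription factors and feedback genes, 10 in DEREG and 9 in WT were at least 2-fold higher after ischemia. The largest steps in WT were those of the phosphatase Ptpn6 (4.58), the myeloid factor Irf8 (4.31) and the feedback inhibitor Socs3 (4.15), and in DEREG those of Ptpn6 (5.12), Irf8 (4.95) and Irf5 (4.74). Between DEREG and WT ischemia, Irf1 (1.18), Socs1 (1.15) and Socs3 (1.1) passed 2-fold. Of 12 upstream sensors and adaptors 9 were at least 2-fold higher in each genotype, led by the RNA sensor Tlr7 (5.47 in DEREG, 5.23 in WT), the kinase Ikbke (at least 25.8-fold in DEREG, at least 14.5-fold in WT) and the adaptor Sting1 (3.96 and 3.29). None of the 12 passed 2-fold between DEREG and WT ischemia, where Myd88 (0.73), Cgas (0.72) and Sting1 (0.72) were the largest.

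Of 15 genes fixed as interferon gamma targets, 14 were at least 2-fold higher after ischemia in each genotype. Cxcl10, a chemokine that draws T cells, gave 13839 and 4331 units in DEREG and WT ischemia, against 90.4 and 36.3 units in DEREG and WT sham. Nlrc5 and Ciita, which switch on MHC class I and class II genes, were higher by 5.66 and 5.57 in DEREG, and in WT by 5.63 and by at least 43.8-fold. Ido1, a tryptophan-degrading enzyme named after its values were seen, went the other way with 49.98 and 117 units in DEREG and WT ischemia, against 1507 and 1886 units in DEREG and WT sham. Between DEREG and WT ischemia 6 of the 15 were at least 2-fold higher, with Cxcl9 (1.91), Gbp5 (1.86) and Cxcl10 (1.68) the largest.

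Markers of several cell types moved with these differences. The 9 macrophage and monocyte markers summed to 154337 and 122783 units in DEREG and WT ischemia, against 12969 and 9869 units in DEREG and WT sham, and the 10 microglia markers to 293334 and 250085 units, against 60855 and 69176 units. The 5 neuron markers summed to 18512 and 40314 units in DEREG and WT ischemia, against 135142 and 145724 units in DEREG and WT sham. The 8 T cell markers summed to 6340 and 2172 units in DEREG and WT ischemia, against 1910 and 1971 units in DEREG and WT sham, with 8 above background on each ischemia array and 6 on each sham array. Between DEREG and WT ischemia the median difference was 1.57 for T cell markers, 1.78 for CD8 T and NK cell markers and 1.71 for neutrophil markers. It was 0.46 for macrophage, 0.34 for astrocyte, 0.33 for endothelial, 0.22 for microglia and -0.88 for neuron markers, next to 0.89 for the interferon-stimulated genes. Cd8a, the defining CD8 T cell marker, gave 167 units in DEREG ischemia and 22.4 units in WT ischemia and was below background on both sham arrays. The part of these cell types in the differences of the interferon-stimulated genes was not tested.

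**Figure D4:**
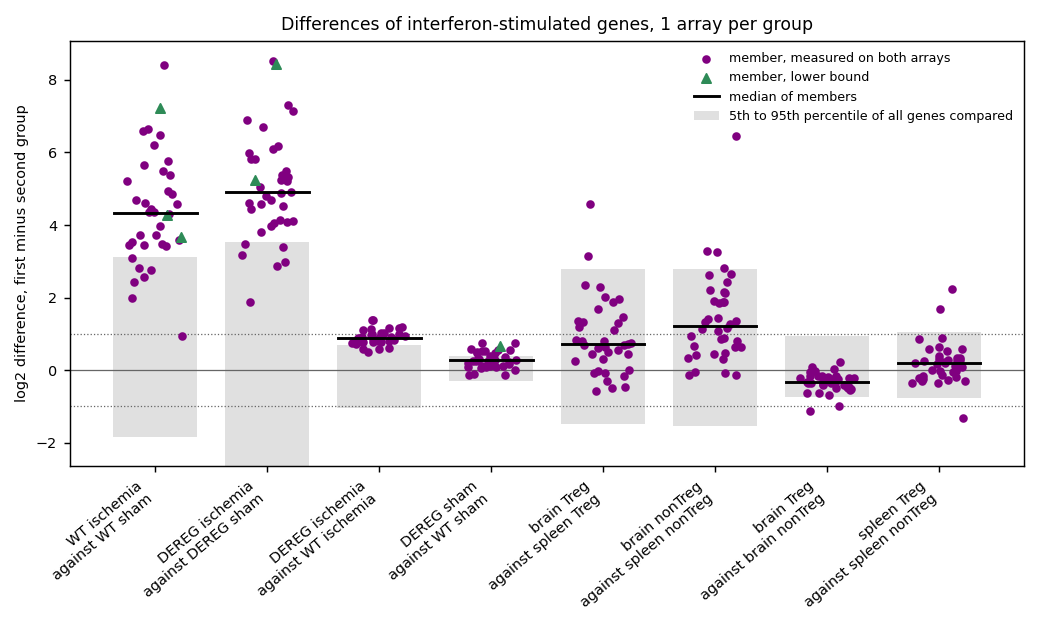
Log2 differences of the interferon-stimulated genes in 8 comparisons (points, measured on both arrays; triangles, lower bounds; black line, their median) over the 5th to 95th percentile of all genes compared (grey); dotted lines mark 2-fold. The medians stand at 4.33 and 4.90 for ischemia, 0.89 between DEREG and WT ischemia, and 0.72 and 1.22 for brain Treg and nonTreg against spleen.

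The T cell arrays showed smaller differences. Brain cells came from mice after stroke and spleen cells from untreated mice, so organ and injury cannot be told apart in brain against spleen differences. All 38 genes were well above background on all 4 arrays. In Treg, 14 of 38 genes exceeded their spleen level by 2-fold or more in the brain, against 17.2% of 13776 genes, and none were 2-fold lower, against 11.8%. In nonTreg 22 of 38 did so, against 17.8% of 13401 genes, and none were 2-fold lower, against 12.1%. The medians were 0.72 in Treg and 1.22 in nonTreg, against 0.03 and 0.01 over all genes. Above 0 were 29 genes in Treg and 34 in nonTreg, where 51.6% and 50.8% of all genes were.

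**Figure D5:**
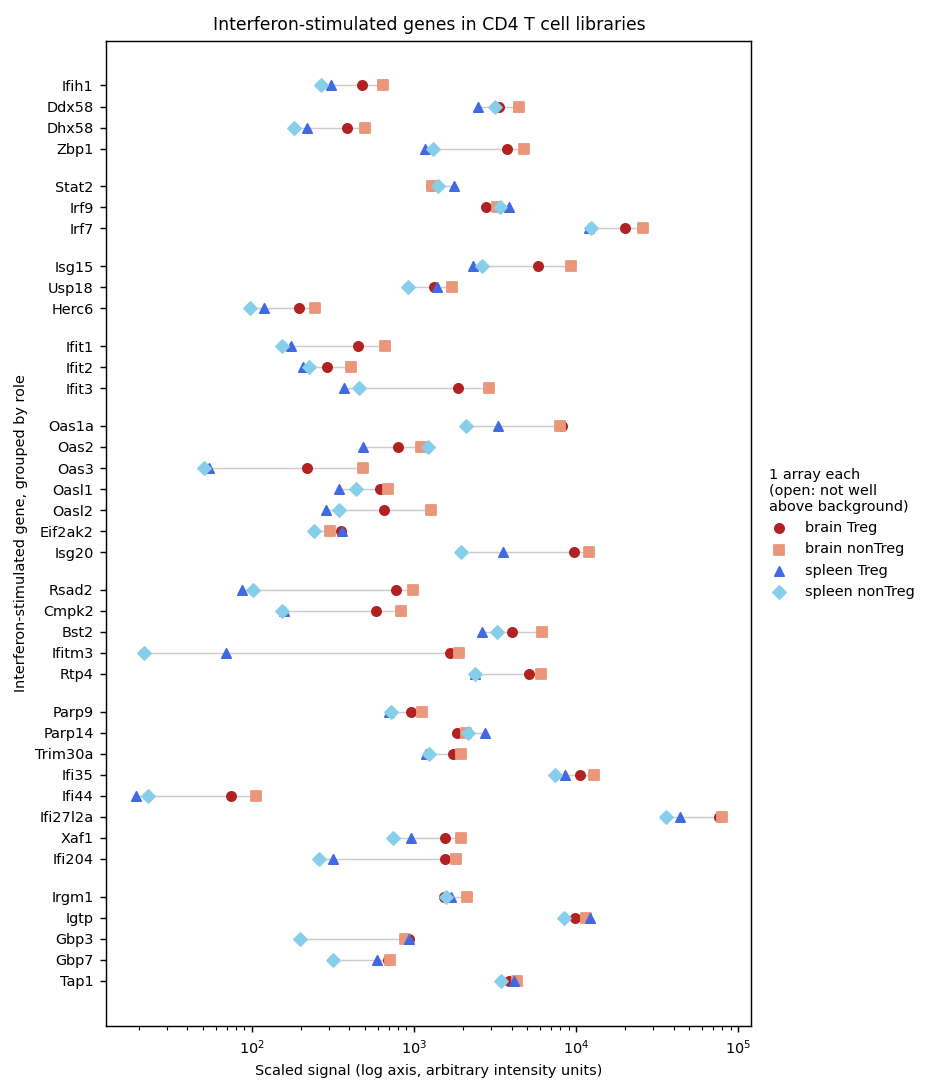
Scaled signal (log axis, arbitrary intensity units) of 38 interferon-stimulated genes on the 4 CD4 T cell arrays, grouped by role; every value was well above background. Both brain arrays lie to the right of the spleen arrays for genes such as Rsad2 and Ifitm3, while Stat2, Irf9 and Parp14 show little spread.

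Ifitm3 and Rsad2 had the largest differences between brain and spleen in both cell types. Ifitm3 gave 1675 units in brain Treg and 1885 in brain nonTreg, against 69.5 units in spleen Treg and 21.5 in spleen nonTreg. Rsad2 gave 771 units in brain Treg and 988 in brain nonTreg, against 87.3 units in spleen Treg and 102 in spleen nonTreg. Both brain arrays stood above both spleen arrays for these genes, by 24.1-fold (Treg) and 87.6-fold (nonTreg) for Ifitm3 and by 8.83-fold and 9.67-fold for Rsad2. With normexp these values were 13.2-fold and 21.4-fold for Ifitm3 and 5.16-fold and 5.94-fold for Rsad2. Cmpk2, the neighbour of Rsad2 with the smallest step in tissue, was 3.68-fold higher in brain Treg and 5.37-fold higher in brain nonTreg. Bst2 differed least of the 5 genes of this group, 1.53-fold and 1.91-fold.

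Of the IFIT family, Ifit1 and Ifit3 passed 2-fold in both T cell types and Ifit2 in neither. Ifit3 gave 1877 units in brain Treg and 2903 in brain nonTreg, against 372 units in spleen Treg and 458 in spleen nonTreg. Of the OAS family with Eif2ak2 and Isg20, the genes Oas1a, Oas3, Oasl2 and Isg20 passed 2-fold in both. Oas3 gave 219 units in brain Treg and 482 in brain nonTreg, against 54.3 units in spleen Treg and 50.6 in spleen nonTreg. Oas2 was an exception: 803 units in brain Treg and 1107 in brain nonTreg, against 485 units in spleen Treg and 1215 in spleen nonTreg, so its brain and spleen values overlapped. Eif2ak2 was at 355, 303, 362 and 243 units in brain Treg, brain nonTreg, spleen Treg and spleen nonTreg, and so did not separate brain from spleen either.

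Isg15 gave 5796 units in brain Treg and 9377 in brain nonTreg, against 2302 units in spleen Treg and 2621 in spleen nonTreg. Irf7 was 1.67-fold higher in brain Treg and 2.10-fold higher in brain nonTreg than in the spleen cells. Its partners in the pathway were not: Stat2 gave 1275 units in brain Treg and 1301 in brain nonTreg, against 1778 units in spleen Treg and 1416 in spleen nonTreg, and Irf9 was lower in brain by 0.46 in Treg and by 0.08 in nonTreg on the log2 scale. Parp14 had the lowest difference in Treg, with 1832 units in brain Treg and 2104 in brain nonTreg, against 2743 units in spleen Treg and 2166 units in spleen nonTreg. Ifi204, the largest measured step in tissue, was 4.92-fold higher in brain Treg and 7.02-fold higher in brain nonTreg. Ifi44 was 3.88-fold and 4.66-fold higher, but 1.43-fold and 1.62-fold with normexp.

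Several T cell differences depended on the probe. Zbp1 was 3.21-fold higher in brain Treg than in spleen Treg by the probe used, but its second probe gave -1.1 on the log2 scale there and -0.40 in nonTreg. Xaf1 was higher by 0.69 in Treg and 1.40 in nonTreg by the probe used, with -0.51 and -0.57 by its second probe. Second probes also gave the other sign in the brain against spleen comparisons for Parp9 in both cell types, Ifi27l2a, Irgm1 and Tap1 in Treg, and Irf9 in nonTreg, and further probes of Ddx58 did so in both. In all, 16 genes had 19 further probes. Of 122 comparisons measured by both probes, tissue comparisons included, 20 disagreed in sign and 6 were over 2-fold apart. Only the Zbp1 comparison in Treg was 2-fold in opposite directions.

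Of the GTPases, Gbp3 differed most between Treg and nonTreg cells in the spleen. It gave 933 units in brain Treg and 886 in brain nonTreg, against 939 and 197 units in spleen Treg and nonTreg. Only spleen nonTreg was low, so that Gbp3 was 4.48-fold higher in brain than spleen in nonTreg and did not differ by 2-fold in Treg. In the spleen, Gbp3 (2.25) and Ifitm3 (1.69) were at least 2-fold higher in Treg than in nonTreg, against 5.38% of 12543 genes, and Oas2 (-1.33) was at least 2-fold lower, against 3.24%. Above 0 there were 23 of 38 genes, against 48% of all genes, with a median of 0.19. With normexp the median was 0.084 and Ifitm3 stood at 0.51. By second probes Rsad2 stood at -1.06, past 2-fold lower in spleen Treg. Xaf1 (-0.18) and Oasl1 (0.13) then had the other sign than by the probe used.

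In the brain, 35 of 38 genes were lower in Treg than in nonTreg, while 51.5% of 13753 genes were higher. The median was -0.33, against 0.01 over all genes. None were at least 2-fold higher, against 4.63%, and 1 gene, Oas3 (-1.14), was at least 2-fold lower, against 2.86%. That count was 0 with normexp background correction and 2 with the other probe set for scaling or with the median over a gene's probes. Oasl2 (-0.97) and Isg15 (-0.69) came next, and Eif2ak2 (0.23), Gbp3 (0.07) and Oas1a (0.04) were the 3 genes above 0 by the probe used. A second probe of Zbp1 gave -1.09, past 2-fold lower. A second probe of Parp9 gave 0.11, and further probes of Ddx58 gave 0.06, 0.04 and -0.11. The other further probes measured were below 0. Brain nonTreg over brain Treg over both spleen arrays was the order of 27 of 38 genes and of 15.2% of 11298 genes in all.

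The step from spleen to brain was smaller in Treg than in nonTreg for 36 of 38 genes, while it was larger for 52% of 11298 genes, with a median difference of -0.50 against 0.02 over all genes. Oas2 (0.86) and Oasl1 (0.19) were the 2 exceptions. These counts hold for the probe used. By further probes the step was larger in Treg for Rsad2 (3.66 in Treg, 2.98 in nonTreg), Parp9, Xaf1 and Ddx58. It was smaller in Treg for Oasl1 (0.81 and 1.39). The further probe of Oas2 was not compared, and those of the other genes kept a smaller step in Treg. By the probe used, the step was smaller in Treg by at least 2-fold for 4 genes, against 3.79% of all genes. These were Gbp3 (-2.17), Ifitm3 (-1.86), Oas3 (-1.24) and Isg20 (-1.16). For none was the step larger by that much, against 2.3%. With normexp background correction 2 genes differed by 2-fold. Steps in Treg and nonTreg, which share no array, had Pearson's r = 0.917 and Spearman's rho = 0.855 across the 38 genes.

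Interferon gamma was the one interferon gene clearly measured in T cells. Ifng gave 4497 units in brain Treg and 16855 in brain nonTreg, against 227 and 253 units in spleen Treg and nonTreg. Ifnb1 was above background in brain Treg (16.6 units) and brain nonTreg (9.68 units) and on neither spleen array. Of the other ligands, Ifna1, Ifna5, Ifnab and Ifnk were above background on 1 or more arrays, at 11.0 to 20.95 units there, and Ifna2, Ifna4, Ifna12, Ifne and Ifnl3 on none. Ifngr1 was higher in brain by 1.90 in Treg and 2.29 in nonTreg, and Ifnar2 by 0.36 and 1.07. Ifnar1 was lower by 0.17 and 0.16 on the log2 scale, Ifngr2 stood at 0.29 and -0.39, Il10rb at -0.12 and 0.41, and Ifnlr1 was not above background on any T cell array.

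Of the 13 kinases, transcription factors and feedback genes, 3 in Treg and 4 in nonTreg were at least 2-fold higher in brain, among them Irf5 (2.51 and 4.31), Irf8 (2.27 and 4.38) and Jak2 (2.04 and 1.90). Socs1 (-1.26) was at least 2-fold lower in brain Treg. Of the upstream genes, none of 12 passed 2-fold in Treg, where Tlr3 (at least 1.94-fold), Tbk1 (0.75) and Ikbke (-0.62) were the largest, and 2 of 11 did in nonTreg, Tlr7 (1.86) and Tbk1 (1.37). Cgas stood at -0.54 in nonTreg. Of the interferon gamma targets compared, 3 of 14 were at least 2-fold higher in brain in each cell type, Cxcl10 (3.95 in Treg, 6.47 in nonTreg), Ciita and Cxcl9.

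Markers of other cells moved with the brain against spleen differences. The median over microglia markers was 4.33 in Treg and 3.24 in nonTreg, and over macrophage and monocyte markers 5.23 and 3.96. In these medians, and in the endothelial and dendritic cell medians below, markers dim on a spleen array counted at their bound. Only 2 of 9 macrophage and monocyte markers were above background on each spleen array. The summed microglia markers were at 47319 and 26642 units in brain Treg and brain nonTreg, against 25491 and 25216 units in spleen Treg and spleen nonTreg. The summed macrophage and monocyte markers were at 34724 and 57115 units in brain Treg and brain nonTreg, against 14602 and 19496 units in spleen Treg and spleen nonTreg. Tmem119, the defining microglia marker, gave 1518 units in brain Treg and 480 in brain nonTreg and was below background on both spleen arrays, as was the macrophage marker Adgre1 (790 and 281 units in brain). Endothelial markers had a median of 1.29 in Treg and 1.74 in nonTreg between brain and spleen, and dendritic cell markers 3.58 and 4.13. Between brain Treg and brain nonTreg, where the interferon-stimulated genes had a median of -0.33, endothelial markers had -0.78, dendritic cell markers -0.67 and CD8 T and NK cell markers -1.62, while macrophage and monocyte markers had 0.92 and microglia markers 1.30. The endothelial markers summed to 31509 units in brain Treg and 55488 in brain nonTreg, and the dendritic cell markers to 1410 and 2799 units. The part of these cells in the differences between T cell arrays was not tested.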

How the data were processed

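RNA of 8 samples was hybridised to 8 arrays of 1 slide, 1 per group. RNA was extracted with QIAzol (tissue) or TRIzol LS (T cells) and labelled with a low-input amplification kit, per the labels' protocols. Scanner files came from Agilent Feature Extraction 10.7.1.1, per the file headers and the submitters' processing notes. The deposited scanner files hold a background-subtracted intensity on a linear scale, per the file headers. The values of the deposited series table are a linear signal. In each array it was the processed intensity divided by 1 constant, for at least 99.89% of probes (tolerance 0.1%).

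Here, spots of a probe were averaged, and each array was divided by its 75th percentile, computed for T cells from the probes that passed background on each of the 4 arrays, and for tissue from all probes. Of 56605 probes, 32989 were named by RefSeq accession against GRCm38.p6. A gene was represented by its brightest probe within the set. For a bound, the dim side was set to its own value or, if that was lower, to the lowest value well above background on its array. The normexp alternative (limma 3.58.1, offset 50) used the median spot signal, since the files used here hold no mean spot signal. Counting was tested on simulated data in which every probe was well above background, so bounds and the scaling of arrays were not tested. Between 47.6% and 65.1% of probes were well above background per array, and replicate spots of a probe had a median SD of 0.040 to 0.045 (log2), a technical error.

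Members and gene lists were chosen with earlier results of these data known. Named genes were the listed symbols by role, with values on every array for the 2 largest and 2 smallest differences of each main comparison. Interferon ligands and receptors were always named, as were the 3 largest differences of each other pathway list and each cell type's defining marker.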

Additional observations from a re-analysis of the deposited data

Results flagged for a closer look

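The median difference between Treg and nonTreg over the 38 interferon-stimulated genes was -0.33 (log2) in the brain and 0.19 in the spleen, opposite in sign, with 1 array on each side. With normexp background correction the values were -0.32 and 0.084. The technical spread of a difference (0.064) came from replicate spots of a probe within an array. It leaves out differences between arrays, so it cannot show whether these medians exceed the noise. The difference between the organs, whose donor mice also differed by stroke, was not tested.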

How the results depend on the processing

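Alternatives were normexp background correction, quantile normalization, the percentile over the other probe set, no filter on dim probes, only genes measured on both arrays, the median over a gene's probes, and the deposited series table. No median changed sign. Of 56 recomputed medians 46 moved by less than 0.064 (log2, the technical spread of a difference from replicate spots within an array). With normexp, the median was 4.08 for DEREG ischemia against DEREG sham, 3.36 for WT ischemia against WT sham, 1.0 for brain against spleen nonTreg, 0.59 for brain against spleen Treg, 0.15 for DEREG sham against WT sham and 0.084 for spleen Treg against spleen nonTreg. Genes at least 2-fold higher in DEREG than in WT ischemia were 7 with the other probe set. With normexp, 1 gene was at least 2-fold higher in spleen Treg than in spleen nonTreg. Genes at least 2-fold lower in brain Treg than in brain nonTreg were 2 with the other probe set, 2 with the median over probes and 0 with normexp. Genes whose step from spleen to brain differed by 2-fold between Treg and nonTreg were 2 with normexp. Genes whose step from sham to ischemia differed by 2-fold between DEREG and WT were 4 with no filter. The cause of these moves was not tested. In the comparison of DEREG sham with WT sham, the share of higher among all genes past 2-fold was 56.8%, against 84.6% with normexp, 71.0% among genes measured on both arrays and 49.1% with quantile normalization. These shares rest on few genes, since with normexp 0.068% of all genes compared were at least 2-fold higher and 0.012% lower. No paired analysis was possible because each group has 1 array. Genes near background, such as Oas3 and the interferon genes, are limited by signal over background.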
